A study of Mus musculus with 16 samples.

Results

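Mpo, Elane, Prtn3, Ctsg, Ms4a3 and Fcnb are 6 genes that mouse granulocyte-monocyte progenitors transcribe strongly, and they were taken by symbol from the 53342 genes in the tables. Their RNA was measured by sequencing in LSK cells, the marrow cells that lack the lineage antigens B220, CD3, CD4, CD5 and CD8 and carry Sca-1 and c-Kit, the gate of hematopoietic stem cells and of progenitors with several fates. The 16 libraries formed 4 groups: mutant mice given 5-fluorouracil (5-FU, 250 mg/kg; n = 3), wild-type mice given the same dose (n = 3), mutant mice given PBS (n = 5) and wild-type mice given PBS (n = 5). Mutant here means Gata2 +9.5(Ets)-/-, mice in which both copies of the +9.5 enhancer, in an intron of the transcription factor gene Gata2, have a C-to-T change within an Ets motif. All mice had a C57BL/6J background and an age of 8 to 14 weeks. Marrow was taken 10 days after the injection of 5-FU, a drug that kills dividing cells, or of PBS, and 3000 to 10000 cells were sorted per replicate. The labels do not say whether a replicate is 1 mouse or a pool, so every p-value below measures the spread between these libraries. All 6 genes passed the filter on low counts that left 16482 genes to test. Fcnb passed it through its PBS libraries.

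Granulocyte precursors fill their granules in waves, and the first wave, the primary or azurophil granules, is laid down at the promyelocyte stage. Mpo encodes myeloperoxidase, the heme enzyme of these granules that makes hypochlorous acid. Elane, Prtn3 and Ctsg encode the serine proteases neutrophil elastase, proteinase 3 and cathepsin G, which are stored in active form beside it. Ms4a3 encodes a membrane protein that marks granulocyte-monocyte progenitors and is no granule enzyme. Fcnb encodes ficolin B, a carbohydrate-binding protein of innate immunity made by myeloid cells.

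Total expected counts ran from 19.37 to 28.88 per library, in units of 1e6. Ly6a, which encodes Sca-1, stood at 376 TPM (transcripts per 1e6) or more in every library, and Kit at 9.07 TPM or more. Immunoglobulin transcripts, which plasma cells make in bulk, took 5.90 to 28.3% of the counts in mutant 5-FU libraries, 0.0404 to 0.344% in wild-type 5-FU libraries, 3.83 to 53.7% in mutant PBS libraries and 6.72 to 47.6% in wild-type PBS libraries. The labels carry a code for each sample, written with a leading zero for the 3 mutant 5-FU samples and for replicates 1 to 3 of both PBS groups, and without one for the 3 wild-type 5-FU samples and replicates 4 and 5 of both PBS groups. What the code stands for is not given in the sources used here. After 5-FU the writing of the code and the genotype cannot be told apart.

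The genes lie on 5 chromosomes. In GRCm38 (GENCODE M21), Elane spans chr10:79886247-79888215 and Prtn3 chr10:79874476-79883174, both on the plus strand and next to each other. Mpo spans chr11:87793581-87804413 on the plus strand, Ctsg chr14:56099881-56102574, Ms4a3 chr19:11629496-11640851 and Fcnb chr2:28076378-28084885, the last 3 on the minus strand. An antisense gene, Gm11505, overlaps Mpo, and the minus-strand gene Plppr3 overlaps the upstream end of Prtn3. The library kit is not stated to mark strand, so reads from such overlaps cannot be told apart.

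The enhancer change of the mutant alters an Ets motif within Gata2 and none of the stretches below, and any relation to them was not tested. The sequences before the start sites are shown for all 6 genes as a description. They are from RefSeq (GRCm38.p6), 5′ to 3′ on each gene's own strand, and capitals mark GGAAGT, one form of the Ets core. Each runs from 250 bases before the RefSeq start and ends before the first base of any protein-coding GENCODE transcript, so that the stretch is 47 bases for Mpo and 185 to 250 bases for the others.
Mpo (chr11:87793534-87793580, plus strand): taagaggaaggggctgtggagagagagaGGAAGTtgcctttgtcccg
Elane (chr10:79886062-79886246, plus strand): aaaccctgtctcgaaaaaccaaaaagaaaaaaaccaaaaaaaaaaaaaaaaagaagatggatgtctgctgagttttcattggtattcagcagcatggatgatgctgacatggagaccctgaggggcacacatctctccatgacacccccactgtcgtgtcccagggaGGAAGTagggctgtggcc
Prtn3 (chr10:79879417-79879613, plus strand): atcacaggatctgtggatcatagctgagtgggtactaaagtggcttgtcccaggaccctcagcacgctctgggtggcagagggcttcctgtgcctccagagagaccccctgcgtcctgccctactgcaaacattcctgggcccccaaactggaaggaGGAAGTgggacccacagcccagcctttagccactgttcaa
Ctsg (chr14:56102575-56102824, minus strand): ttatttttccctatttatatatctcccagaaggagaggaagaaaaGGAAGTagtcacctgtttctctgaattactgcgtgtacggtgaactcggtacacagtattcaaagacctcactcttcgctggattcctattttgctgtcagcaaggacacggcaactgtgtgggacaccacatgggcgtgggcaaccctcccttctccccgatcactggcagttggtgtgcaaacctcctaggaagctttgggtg
Ms4a3 (chr19:11640852-11641101, minus strand): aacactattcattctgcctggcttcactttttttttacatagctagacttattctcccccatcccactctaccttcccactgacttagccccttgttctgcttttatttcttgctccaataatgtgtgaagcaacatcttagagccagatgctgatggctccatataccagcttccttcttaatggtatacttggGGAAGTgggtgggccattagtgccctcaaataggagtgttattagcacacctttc
Fcnb (chr2:28084886-28085128, minus strand): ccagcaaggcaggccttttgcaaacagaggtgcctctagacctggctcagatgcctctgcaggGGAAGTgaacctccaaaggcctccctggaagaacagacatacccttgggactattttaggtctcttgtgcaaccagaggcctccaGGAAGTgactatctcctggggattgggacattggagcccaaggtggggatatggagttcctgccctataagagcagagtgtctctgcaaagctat
All 6 windows of 250 bases hold GGAAGT on one strand or the other, as do 19.7% of the 32851 mouse promoter windows of that length. Its first letter lies 222 bases before the RefSeq start in Mpo, 83 in Elane, 93 in Prtn3, 205 in Ctsg, 55 in Ms4a3, and both 187 and 102 in Fcnb. The letters GAGGAA, a form bound by the myeloid Ets factor PU.1, are found in the windows of Mpo, Elane, Prtn3 and Ctsg, 4 of 6, and in 23.3% of all windows; in Mpo, Elane and Prtn3 they share bases with GGAAGT. For C/EBP factors, TTNNGNAA is in 2 of 6 against 36.8%, and TGNNGNAA in 3 of 6 against 41%. For Myb, AACGG is in 2 of 6 against 14.5%, and AACTG in 3 of 6 against 39.1%. The RUNX letters TGTGGT are in 1 of 6 against 14%, and the GATA letters AGATAA in 0 of 6 against 9.99%. The letters were chosen after these sequences had been seen, both strands were searched, and a match describes the letters and not a bound site.

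Under PBS, Mpo was the most abundant of the 6 per unit length in 8 of 10 libraries. It averaged 1440 ± 1741 TPM in mutant PBS libraries and 799 ± 610 TPM in wild-type PBS libraries (SD, n = 5 each). Elane was next, at 858 ± 908 TPM in mutant and 556 ± 359 TPM in wild-type PBS libraries, and it came first in replicate 3 of both genotypes. Prtn3 followed with 414 ± 360 and 325 ± 161 TPM in mutant and wild-type PBS libraries, then Ctsg with 231 ± 233 and 171 ± 91.1 TPM. Ms4a3 averaged 115 ± 106 TPM in mutant and 97.4 ± 50.04 TPM in wild-type PBS libraries, and Fcnb 52.7 ± 10.4 and 48.2 ± 20.1 TPM. Each gene in this order differed from the next by less than the SD of the higher of the pair, in both genotypes. Within single libraries the order was steadier: Mpo, Elane, Prtn3, Ctsg, Ms4a3 and Fcnb from high to low in 6 of 10.

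After 5-FU the make-up of the set was different. Elane, which held 20.9 to 43.7% of the summed TPM of the 6 genes in PBS libraries, held 0.594 to 8.31% in mutant 5-FU libraries and 0.734 to 6.82% in wild-type 5-FU libraries. Prtn3 held 47.3 to 95.8% in mutant 5-FU libraries and 21.9 to 54.3% in wild-type 5-FU libraries, against 10.96 to 23.5% in mutant PBS libraries and 14.0 to 18.9% in wild-type PBS libraries. Prtn3 was the first of the 6 in all 3 mutant 5-FU libraries and in replicate 2 of the wild-type 5-FU libraries, and Mpo was first in the other two. Fcnb held at most 0.166%. The summed TPM of the 6 genes was 244, 429 and 441 in mutant 5-FU libraries and 1401, 607 and 5332 in wild-type 5-FU libraries. It ran from 526.5 to 7765 with a median of 1024 in mutant PBS libraries and from 806 to 3762 with a median of 1965 in wild-type PBS libraries. On this scale the 3 mutant 5-FU libraries lay below all others. With immunoglobulin genes left out of the TPM scaling, the sums were 492, 681 and 519 in mutant 5-FU libraries and 1411, 608 and 5383 in wild-type 5-FU libraries, so that the 2 groups overlapped, and 1413 or more in every PBS library.

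**Figure D1:**
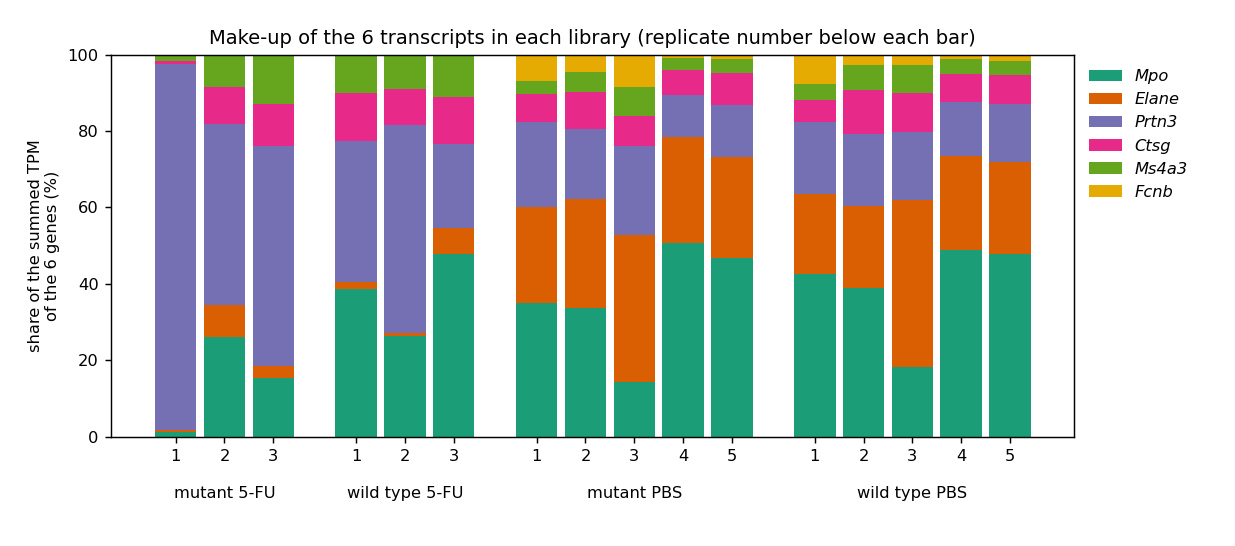
Share of each gene in the summed TPM of the 6 genes, 1 bar per library, with replicate numbers below the bars and groups named under them. Elane (orange) is at most 8.31% after 5-FU and at least 20.9% under PBS, and Fcnb (yellow) is seen only under PBS.

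The tests below use counts per 1e6 (CPM) scaled by the trimmed mean of M-values (TMM), which compare 1 gene between libraries and not genes with one another. Values are given in the order of the replicate numbers. The comparisons share libraries, since each of the 4 groups enters several of them.

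Comparing 5-FU with PBS asks how much of this myeloid program remained in the LSK gate 10 days after the drug. Of the 6 genes, 1 (Fcnb) was called lower in the mutant, where 1.36% of all genes were, and the same 1 was called lower in wild type, where 9.31% of all genes were. Elane had a lower mean CPM after 5-FU in both genotypes, and Prtn3 had the smallest difference of the 6 in the mutant. Mpo, Ctsg and Ms4a3 had lower mean CPM in the mutant, also without passing the threshold. In CPM the groups did not overlap for 4 of the 6 genes in the mutant (Mpo, Elane, Ctsg and Fcnb), where 4.94% of all genes were lower without overlap. In wild type this held for 2 of the 6 (Elane and Fcnb), against 15.8% of all genes. The separation depends on the scale. On deposited TPM mutant Mpo reached 112 after 5-FU against a lowest PBS value of 76.05, and Ctsg 48.9 against 41.1. With immunoglobulin genes left out of the TPM scaling, these were 179 against 259 for Mpo and 65.7 against 100.01 for Ctsg. Elane in wild type also overlapped on deposited TPM, as given below. The median log2 difference of the 6 was -3.78 in the mutant and -0.71 in wild type, against -0.03 and -0.11 over all genes. With DESeq2, 4 of 6 were called lower in the mutant (Mpo, Elane, Ctsg and Fcnb), where 3.5% of all genes were, and 2 of 6 in wild type (Elane and Fcnb), where 17.8% were. Fewer cells of a type and less RNA per cell cannot be told apart in these bulk samples.

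Fcnb fell to 0 or close to it after 5-FU in both genotypes. In mutant 5-FU libraries it had 0, 0.634 and 0.0304 CPM (0, 20 and 1 counts), against a lowest value of 32.3, a median of 59.1 and a highest of 151 CPM in mutant PBS libraries. In wild-type 5-FU libraries it had no count in any of the 3, against 83.2, 53.9, 181, 20.2 and 37.1 CPM in wild-type PBS libraries. The fall was -8.30 ± 1.24 log2 units (SE) in the mutant, with an adjusted p of 0.00385 in edgeR's quasi-likelihood test. In wild type it was at least 790-fold lower, taking 3 counts per library as the floor for a count of 0, with an edgeR adjusted p of 0.000746. The change was thus called in both genotypes, and no 5-FU library came near a PBS library. In the mutant, an analysis within 1 code prefix (PBS replicates 1 and 2 against the 3 5-FU libraries) left the fall at -8.18 with an edgeR adjusted p of 0.0809.

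The genes of the secondary granules, the later wave that marks maturing neutrophils, were also low after 5-FU. Of 11 tested, 7 fell in the mutant and 11 in wild type after 5-FU, against 1.36% and 9.31% of all genes, and none rose. Like Fcnb, genes near 0 after 5-FU passed the filter on low counts through their PBS libraries. Such a gene could be seen to fall and hardly to rise, so these counts are a description. Their summed level was 2.60 to 90.1 CPM in mutant 5-FU libraries and 1.65 to 39.1 CPM in wild-type 5-FU libraries, against 4147 to 25462 CPM in mutant PBS and 3251 to 22170 CPM in wild-type PBS libraries. Ngp, a granule protein of neutrophil precursors, averaged 4.47 CPM in mutant 5-FU libraries and 2028 CPM in mutant PBS libraries (log2 fold change -8.82 ± 1.56, edgeR adjusted p 0.00779). The matrix metalloprotease gene Mmp9 had a log2 fold change of -6.13 ± 0.94 in the mutant (edgeR adjusted p 0.00269) and -7.65 ± 1.02 in wild type (0.000442). Cd177 and Retnlg, a surface protein and a secreted protein of neutrophils, had log2 fold changes of -8.82 and -9.84 in the mutant (edgeR adjusted p 0.000607 and 8.66e-05). The median of the 11 was -8.30 in the mutant and -10.51 in wild type, against -0.03 and -0.11 over all genes tested. The part of these neutrophil-type transcripts in the level of Fcnb was not tested.

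In CPM Elane lay below its PBS range in every 5-FU library of both genotypes, without passing the threshold. It had 1.42, 26.2 and 8.38 CPM in mutant 5-FU libraries, against 180, 413, 589, 1343 and 718 CPM in mutant PBS libraries. In wild type it had 10.4, 1.62 and 162 CPM after 5-FU, against 192, 378, 2541, 426 and 451 CPM under PBS. Neither pair of groups overlapped in CPM, although wild-type 5-FU replicate 3 came close to the lowest PBS library. On deposited TPM that replicate had 364, above wild-type PBS replicates 1 and 2 (168 and 271), so the wild-type groups overlapped. With immunoglobulin genes left out of the TPM scaling it had 367, against 397 in the lowest wild-type PBS library. The log2 difference was -5.76 ± 1.66 in the mutant (edgeR adjusted p 0.109) and -3.78 ± 1.49 in wild type (0.0909). DESeq2 called both, with adjusted p of 7.78e-05 in the mutant and 0.00929 in wild type. Without wild-type 5-FU replicate 3, edgeR called both as well: the difference was -5.75 in the mutant (adjusted p 0.0384) and -7.04 in wild type (0.0244).

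Prtn3 overlapped its PBS level after 5-FU in both genotypes, and in the mutant it had the smallest difference of the 6. It had 177, 119 and 117 CPM in mutant 5-FU libraries, against 132, 223, 300.3, 473 and 323 CPM in mutant PBS libraries. After 5-FU wild-type libraries had 161, 92.8 and 424 CPM, against 140, 275, 884, 206 and 242 CPM under PBS. The log2 difference was -1.08 ± 0.59 in the mutant (edgeR adjusted p 0.484) and -0.63 ± 0.58 in wild type (0.430). In wild type the sign turned with wild-type PBS replicate 3 left out, to 0.067, so that no direction can be given there.

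The balance of Prtn3 and its neighbour Elane was turned round after 5-FU, on the ratio of their TPM, a quantity that does not depend on how libraries are scaled. The log2 ratio of Prtn3 to Elane was 7.33, 2.51 and 4.15 in mutant 5-FU libraries and 4.30, 6.21 and 1.68 in wild-type 5-FU libraries. Under PBS it lay between -1.34 and -0.17 in the mutant and between -1.29 and -0.15 in wild type. No 5-FU library overlapped a PBS library. The ratio was chosen as a description and carries no test.

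The estimated length of the Prtn3 transcripts moved with the treatment too. It averaged 795 ± 9.72 bases in mutant 5-FU libraries and 801 ± 19.7 bases in wild-type 5-FU libraries (SD, n = 3 each), against 853 ± 26.7 bases in mutant PBS and 841 ± 15.7 bases in wild-type PBS libraries (n = 5 each). All 3 mutant 5-FU libraries lay below all mutant PBS libraries, and wild-type 5-FU replicate 3, at 822 bases, lay within the wild-type PBS range of 819 to 854. This length is the mean over annotated isoforms weighted by their estimated abundance. Prtn3 has 6 transcripts in GENCODE M21, among them the full coding transcript Prtn3-201 of 1025 bases and the intron-retaining Prtn3-204 of 786 bases. The overlapping gene Plppr3 stood at 34.9 to 45.9 TPM in mutant 5-FU libraries and 128 to 156 TPM in wild-type 5-FU libraries, against 4.70 to 97.5 TPM in mutant PBS and 6.58 to 111 TPM in wild-type PBS libraries. Its part in the Prtn3 values was not tested.

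**Figure D2:**
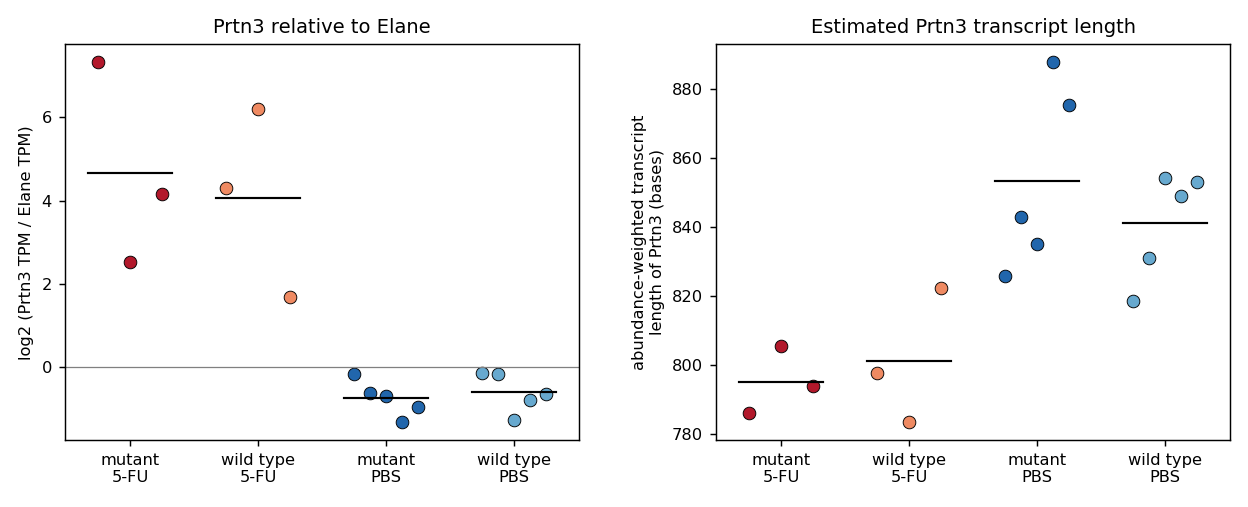
Left, log2 ratio of Prtn3 to Elane TPM in each library; right, abundance-weighted Prtn3 transcript length in bases. Points are libraries and bars are group means; the ratio is 1.68 or more in all 6 libraries after 5-FU and -0.15 or less in all 10 under PBS.

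Mpo had the largest difference between genotypes after 5-FU among the 5 genes with counts in every library. It had 6.25, 172 and 83.1 CPM in mutant 5-FU libraries, against 540, 964, 346, 5281 and 2766 CPM in mutant PBS libraries. In CPM these groups of Mpo did not overlap, while on deposited TPM they did. In wild-type 5-FU libraries it had 483, 131 and 2515 CPM, against 811, 1398, 1222, 1806 and 2060 CPM in wild-type PBS libraries, and replicate 3 was above all of these. The log2 difference between 5-FU and PBS was -4.51 ± 1.296 in the mutant (edgeR adjusted p 0.104) and -0.49 ± 1.05 in wild type (0.756). DESeq2 called the mutant difference, at -4.52 with an adjusted p of 0.000128, and limma-voom called it at -3.76 with 0.0427. The antisense gene Gm11505 ran alongside, at 0 to 0.49 TPM in mutant 5-FU and 0.95 to 12.3 TPM in wild-type 5-FU libraries, against 0.15 to 12.4 TPM in mutant PBS and 0.75 to 7.46 TPM in wild-type PBS libraries.

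Ctsg and Ms4a3 had lower means in mutant 5-FU than in mutant PBS libraries, with no call by edgeR. Ctsg had 1.85, 30.7 and 29.1 CPM in mutant 5-FU libraries, against 51.3, 139, 119, 319 and 228 CPM in mutant PBS libraries. In wild type it had 69.3, 21.8 and 299 CPM after 5-FU, against 54.5, 208, 586, 131 and 147 CPM under PBS. In CPM the mutant groups of Ctsg did not overlap and the wild-type groups did. On deposited TPM the mutant groups overlapped too. Ms4a3 had 3.70, 25.9 and 32.9 CPM in mutant 5-FU libraries, against 24.8, 74.4, 113, 153 and 99.7 CPM in mutant PBS libraries. In wild type it had 54.8, 19.6 and 257 CPM after 5-FU, against 37.7, 114, 421, 66.8 and 65.3 CPM under PBS. Both pairs of Ms4a3 groups overlapped. In the mutant the log2 difference was -3.06 ± 1.09 for Ctsg (edgeR adjusted p 0.218) and -2.16 ± 1.03 for Ms4a3 (0.396), and DESeq2 called Ctsg, with an adjusted p of 0.0175. In wild type it was -0.79 ± 0.97 for Ctsg (0.564) and -0.35 ± 0.94 for Ms4a3 (0.806) by edgeR. The wild-type signs of Mpo, Ctsg and Ms4a3 turned under several other settings, so no direction can be given for them.

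**Figure D3:**
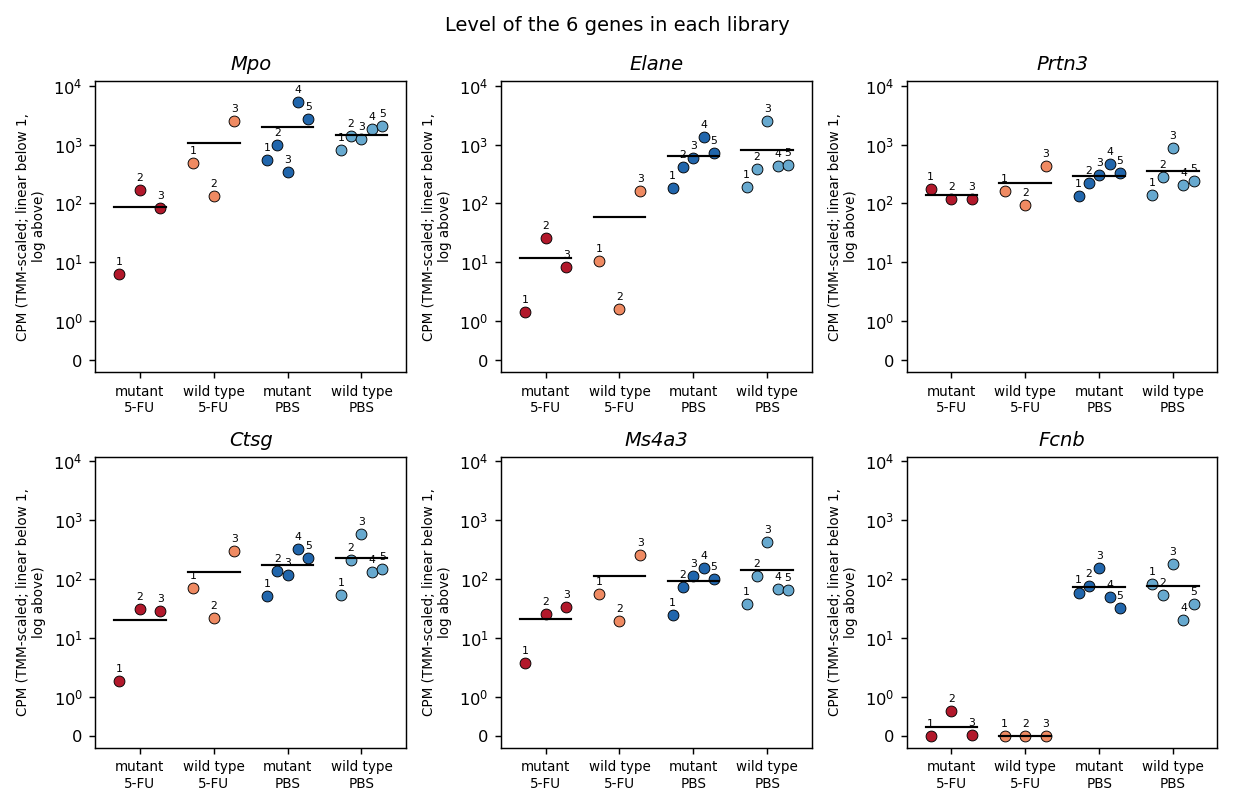
Level of each gene in every library in TMM-scaled CPM, on an axis that is linear below 1 and logarithmic above it. Points are libraries with their replicate numbers and bars are group means. Fcnb is at 0 to 0.634 CPM after 5-FU. On this scale Mpo, Elane and Ctsg of the mutant do not overlap between 5-FU and PBS, while on deposited TPM Mpo and Ctsg do.

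Between genotypes after 5-FU, none of the 6 genes passed edgeR's threshold, where 1.95% of all genes did in either direction. At an unadjusted edgeR p under 0.05, 4 of the 6 did, against 18.4% of all genes. Of these, Mpo, Ctsg and Ms4a3 were lower and Fcnb was higher in the mutant. DESeq2 called 2, Mpo lower and Fcnb higher, against 8.12% of all genes. Mpo, at the values given above, had a log2 difference of -3.58 ± 1.28 in mutant against wild-type 5-FU libraries (edgeR adjusted p 0.163). DESeq2 gave -3.61 with an adjusted p of 0.0135, and limma-voom -2.59 with 0.0495. Ctsg came to -2.66 ± 1.13 (edgeR adjusted p 0.232), Ms4a3 to -2.41 ± 1.10 (0.262), Elane to -2.27 ± 1.45 (0.403) and Prtn3 to -0.71 ± 0.63 (0.541). For each of these 5 genes the mutant and wild-type CPM values overlapped, while 18% of all genes were lower in the mutant without overlap. Wild-type replicate 2 had the lowest wild-type value and replicate 3 the highest value of all 6 libraries. Without that replicate Elane turned to 1.00 and Prtn3 to 0.11. Fcnb had counts in 2 of 3 mutant libraries and none in wild type, and was called by DESeq2 (adjusted p 0.0267) and not by edgeR (0.240). Only mutant replicate 2 lay above the level of 3 counts, and without it the edgeR adjusted p was 0.658, so no fold is given. The median of the 6 was -2.34, against 0.07 over all genes.

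The response to 5-FU was not shown to differ between genotypes for any of the 6. The difference of the responses, mutant minus wild type, was -4.02 ± 1.53 log2 units for Mpo (edgeR adjusted p 0.326), -2.27 ± 1.36 for Ctsg (0.566), -1.97 ± 1.77 for Elane (0.676), -1.81 ± 1.33 for Ms4a3 (0.624), -0.44 ± 0.80 for Prtn3 (0.836) and 5.58 ± 2.53 for Fcnb (0.448). None was called by any of the tools run, and 0.589% of all genes were called by edgeR. At an unadjusted p under 0.05 there were 2, Mpo and Fcnb, against 10.8% of all genes. The fitted Fcnb value rests on a group at 0 and is no measure of size.

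Under PBS the mutant and wild-type libraries overlapped for all 6 genes, where 0.322% of all genes were higher and 0.303% lower in the mutant without overlap. None of the 6 was called by any of the tools run, with 0.0182% of all genes called by edgeR. The log2 difference, mutant minus wild type, ran from -0.60 ± 0.81 for Ms4a3 to 0.44 ± 0.90 for Mpo, with an edgeR adjusted p of 1 for each and no unadjusted p under 0.05. With SEs of 0.49 to 1.07 log2 units, differences of that size were not detectable. Direction was set by single libraries: without wild-type PBS replicate 3 the value was 0.85 for Elane, 0.43 for Prtn3, 0.35 for Ctsg and 0.39 for Ms4a3, and without mutant PBS replicate 4 that of Mpo was -0.34.

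**Figure D4:**
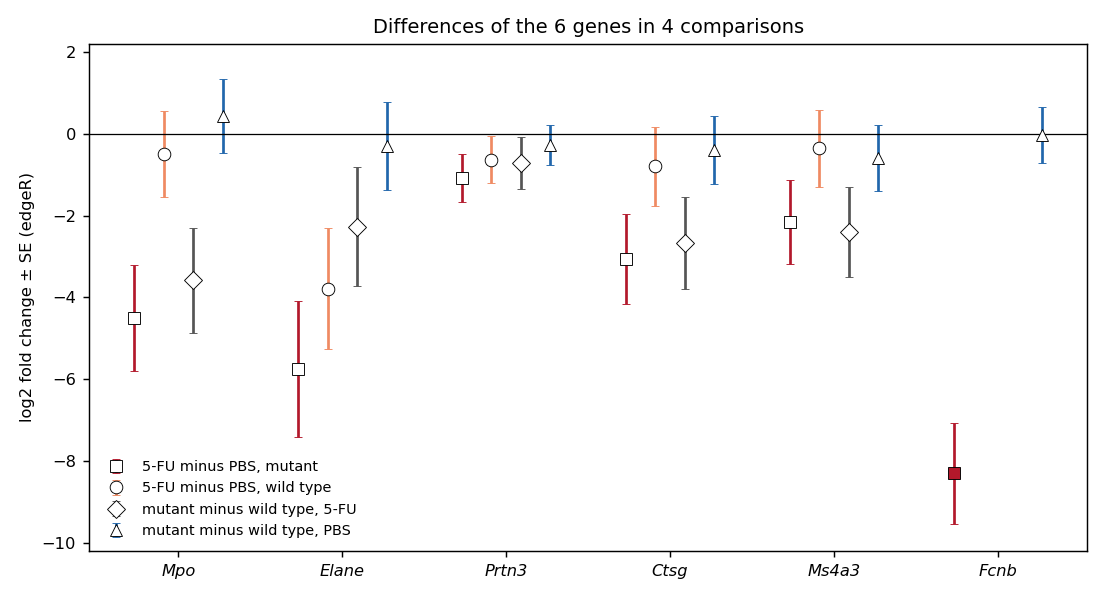
Log2 fold change with its SE from edgeR for each gene in 4 comparisons; filled symbols have an adjusted p under 0.05. Fcnb is left out where wild-type 5-FU libraries, all at 0, enter the comparison; the filled square is Fcnb in the mutant at -8.30, and every value under PBS lies within 1 unit of 0.

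Among the PBS libraries, those whose codes lack the leading zero (replicates 4 and 5) held the highest Mpo values in both genotypes. Mpo was 2766 and 5281 CPM in these mutant libraries against 346 to 964 CPM in the other 3, and 1806 and 2060 CPM in these wild-type libraries against 811 to 1398 CPM. In mutant replicate 4 it was the 8th most abundant gene by TPM. In CPM Fcnb ran the other way: 32.3 and 49.6 CPM against 59.1 to 151 CPM in the mutant, and 20.2 and 37.1 CPM against 53.9 to 181 CPM in wild type. On deposited TPM it did not, with 57.6 and 68.9 against 45.0 to 46.7 in the mutant, and 20.4 and 64.6 against 33.1 to 62.1 in wild type. With immunoglobulin genes left out of the TPM scaling, it had 63.9 and 96.9 against 98.0 to 153 in the mutant. In wild type it then had 38.7 and 77.4 against 83.8 to 176. Elane followed Mpo in the mutant, with 718 and 1343 CPM against 180 to 589 CPM, and not in wild type, with 426 and 451 CPM against 192 to 2541 CPM. The same replicates had the lower immunoglobulin shares, 12.7 and 3.83% in the mutant and 26.2 and 6.72% in wild type, against 30.3% or more in the others. The part of the code or of the immunoglobulin share in these levels was not tested. With the immunoglobulin share or the code writing as a covariate, the 5-FU fall of Fcnb was called in both genotypes. In wild type the shares after 5-FU (0.0404 to 0.344%) lie below every PBS share, so that fit cannot tell share and drug apart. Within 1 code prefix the mutant fall was not called, as given above.

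Within groups, Elane, Ctsg and Ms4a3 varied together across the 16 libraries. The measure was the correlation of deviations from the group mean in log2(CPM + 0.5), as a description of libraries that share depth and composition effects. Ctsg and Ms4a3 had r = 0.97, Elane and Ms4a3 0.93, and Elane and Ctsg 0.93. Against the mean of the other 5 genes, r was 0.96 for each of these 3, 0.70 for Prtn3, 0.67 for Mpo and 0.18 for Fcnb. With the 2 libraries farthest from the median left out, these became 0.95 for Elane, 0.95 for Ctsg, 0.93 for Ms4a3, 0.84 for Prtn3, 0.77 for Mpo and 0.23 for Fcnb. Against the mean of the secondary granule genes, Fcnb had the highest r of the 6, at 0.71, and the others ran from 0.22 for Prtn3 to 0.54 for Elane. The label of the set as primary granule genes rests on Mpo and the 3 proteases, and in these deviations Fcnb stood nearer to the secondary granule genes (0.71) than to the mean of the other 5 (0.18). It was also near the plasma cell genes, at 0.64, where the others ran from -0.47 for Mpo to 0.18 for Prtn3. After 5-FU Fcnb lay at 0 to 0.634 CPM, so its deviations there were held near the floor. Its r values thus rest mainly on the PBS libraries, unlike those of the other 5 genes.

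The genes whose within-group deviations were most like the mean of the 6 were sought among 10149 named genes with a mean of 5 CPM or more. Prss57, the azurophil granule protease NSP4, had r = 0.89, and Fcgr3, an Fc receptor of myeloid cells used to sort granulocyte-monocyte progenitors, 0.82. Trem3, a myeloid receptor of the mouse, had 0.83 and the annexin gene Anxa3 0.85. The others were Ydjc (0.91), Cldn15 (0.88), which encodes a claudin of tight junctions, Med9 (0.87), a Mediator subunit, and Tmem97 (0.83), a membrane protein of sterol handling. Some of them differed little between groups: Ydjc averaged 30.1 ± 6.29 CPM in mutant 5-FU, 28.4 ± 6.76 in wild-type 5-FU, 28.2 ± 4.58 in mutant PBS and 25.1 ± 3.47 in wild-type PBS libraries. Prss57 averaged 9.06 ± 1.13 CPM in mutant 5-FU and 28.5 ± 17.6 CPM in wild-type 5-FU libraries, against 51.8 ± 13.1 CPM in mutant PBS and 53.5 ± 28.1 CPM in wild-type PBS libraries.

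Of 16 other genes of primary granules and their packaging, 2 fell after 5-FU in the mutant, where 1.36% of all genes fell, and 2 in wild type, where 9.31% of all genes fell, and none rose. The wild-type count is near that share. In the mutant these were Prss57, at -2.51 ± 0.43 log2 units (edgeR adjusted p 0.00463), and Cst7, which encodes the protease inhibitor cystatin F, at -3.14 ± 0.66 (0.0170). In wild type they were the lysozyme gene Lyz2, at -3.04 ± 0.46 (0.000901), and the cathepsin gene Ctsb, at -1.13 ± 0.31 (0.0249). The list's median was -0.10 in the mutant and -0.01 in wild type, and most of it consists of lysosomal enzymes that many cells make. None was called between genotypes after 5-FU or under PBS; after 5-FU Prss57 had -1.65 ± 0.44 in mutant against wild-type libraries (edgeR adjusted p 0.0636). Of 5 genes for the folding of myeloperoxidase and for heme synthesis, none was called in any comparison. Calr, a chaperone that binds the myeloperoxidase precursor, averaged 690 CPM in mutant 5-FU and 638 CPM in mutant PBS libraries.

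Of 9 transcription factor genes of the myeloid line, 1 fell in the mutant and 2 in wild type after 5-FU, against 1.36% and 9.31% of all genes. Cebpe, needed for the secondary granule program, averaged 0.235 CPM in mutant 5-FU and 7.33 CPM in mutant PBS libraries (-4.91 ± 0.96, edgeR adjusted p 0.0114), and 0.413 CPM in wild-type 5-FU and 7.43 CPM in wild-type PBS libraries (-4.20 ± 0.92, 0.00884). Irf8, which favours the monocyte line, had -1.73 ± 0.45 in wild type (0.0205) and -1.41 ± 0.44 in the mutant (0.134). Cebpa, needed to form granulocyte-monocyte progenitors, averaged 1.77 CPM in mutant 5-FU and 7.84 CPM in wild-type 5-FU libraries (-2.14 ± 0.54, edgeR adjusted p 0.0533). None of the 9 was called between genotypes.

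Of 12 receptor and surface genes of myeloid progenitors, 3 fell in the mutant and 4 in wild type after 5-FU, against 1.36% and 9.31% of all genes. In wild type 1 rose. Clec12a, a myeloid lectin receptor, fell in both, at -3.31 ± 0.60 log2 units in the mutant (edgeR adjusted p 0.00708) and -3.41 ± 0.61 in wild type (0.00243). Cd34 was lower in mutant than in wild-type 5-FU libraries, at 214 against 682 CPM (-1.67 ± 0.38, edgeR adjusted p 0.0358).

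**Figure D5:**
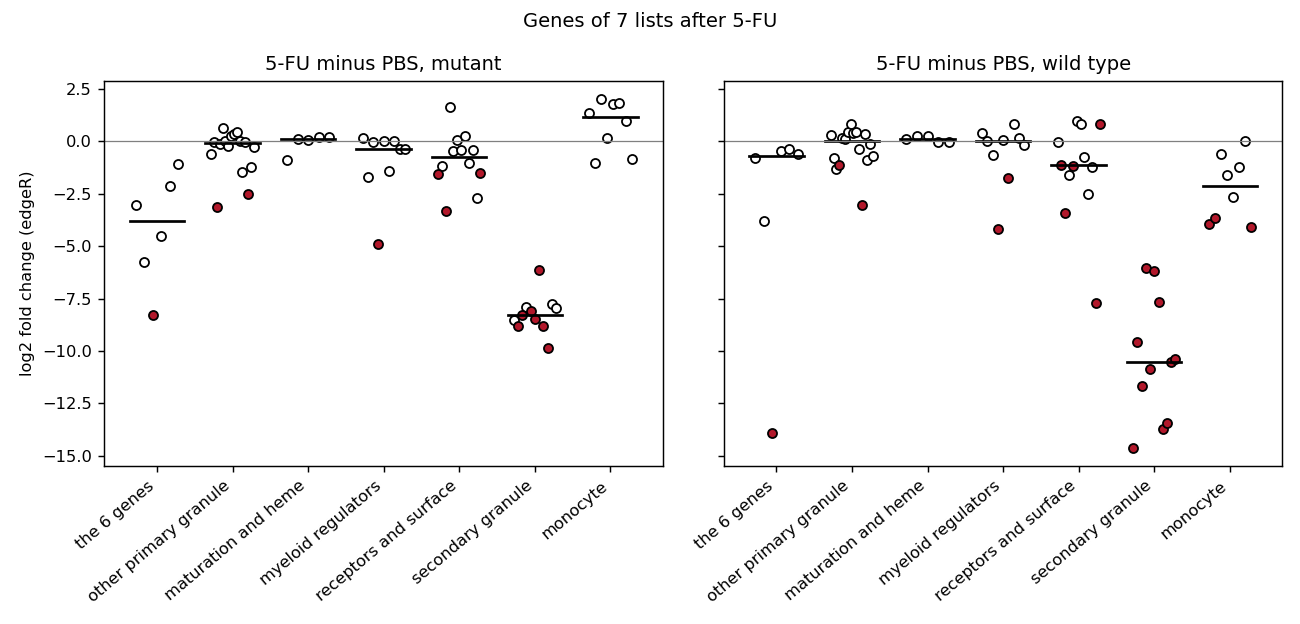
Log2 fold change of each tested gene after 5-FU in the mutant (left) and in wild type (right) for the 6 genes and 6 other lists; points are genes, filled where the edgeR adjusted p is under 0.05, and bars are medians. The secondary granule genes lie at -6.05 or below in both panels with Fcnb among them, and the other primary granule genes are centred near 0; fitted values of genes near 0 counts are not bounds.

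Transcripts of other cell types moved beside the 6 genes. Of all genes, 1.36% fell after 5-FU in the mutant and 9.31% in wild type. Between genotypes after 5-FU, 1.95% were called in either direction. Genes near 0 in a 5-FU group passed the filter on low counts through groups where they were higher. Of 6 genes of T and NK cells, 0 fell in the mutant and 5 in wild type after 5-FU, and 4 were higher in mutant than in wild-type 5-FU libraries. They summed to 8.05 to 18.9 CPM in mutant 5-FU and 0 to 0.190 CPM in wild-type 5-FU libraries, against 2.36 to 6.08 CPM in mutant PBS and 4.75 to 18.7 CPM in wild-type PBS libraries. Cd3e, a chain of the T cell receptor complex, had no count after 5-FU in either genotype, and Il2rb, a cytokine receptor chain of NK and T cells, averaged 6.22 CPM in mutant 5-FU and 0.0228 CPM in wild-type 5-FU libraries. Of 7 genes of eosinophils, basophils and mast cells, 1 fell in the mutant and 4 in wild type, and 1, Ear2, was higher in mutant than in wild-type 5-FU libraries. They summed to 87.7 to 102 CPM in mutant 5-FU and 15.6 to 28.5 CPM in wild-type 5-FU libraries, against 85.6 to 2545 CPM in mutant PBS and 142 to 1926 CPM in wild-type PBS libraries. Epx and Prss34 of this list had no count after 5-FU in either genotype, and Prg2, an eosinophil granule protein gene, averaged 59.9 CPM in mutant 5-FU and 0.791 CPM in wild-type 5-FU libraries. Of 6 B cell genes, 0 fell in the mutant and 6 in wild type. Genes of plasma cells fell in 8 of 8 in wild type and 0 of 8 in the mutant, and their summed level was 2268 to 19310 CPM in mutant 5-FU and 137 to 376 CPM in wild-type 5-FU libraries, against 1557 to 74104 CPM in mutant PBS and 3129 to 64787 CPM in wild-type PBS libraries. Monocyte and macrophage genes summed to 64.8 to 160 CPM in mutant 5-FU and 21.5 to 89.2 CPM in wild-type 5-FU libraries, against 41.9 to 84.3 CPM in mutant PBS and 45.4 to 176 CPM in wild-type PBS libraries. Of these 8, 0 fell in the mutant and 3 fell in wild type, and 1 was higher in mutant than in wild-type 5-FU libraries. The same held for 3 of the B cell genes and 6 of the plasma cell genes. The part of these cell types in the levels of the 6 genes was not tested.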

How the data were processed

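Each deposited table lists, per the file headers, expected counts, TPM and FPKM (no value here uses FPKM) by gene, with its length and effective length. The submitters' processing notes name RSEM 1.3.1, FastQC 0.11.2 and mm10/GRCm38; aligner and annotation: not given in the sources used here. RNA was purified and amplified from sorted cells with kits named per the labels' protocols, without a stated strand setting. Gene positions are those of GENCODE M21, in which 53237 of 53342 IDs were found.

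The deposited expected counts, once rounded, were filtered with filterByExpr of edgeR 4.0.16 (minimum count 10), libraries scaled with TMM factors of 0.508 to 1.37, and the quasi-likelihood F test (robust, all 16 libraries, 1 mean per group) was run in R 4.3.3 over all genes, with p-values adjusted over all genes by Benjamini-Hochberg and a threshold of 0.05. The SE equals the fitted log2 change over the root of F. A gene at 0 in a whole group gets a bound from 3 counts per library, 0.0798 to 0.272 CPM, which covers counting error only. TPM, as the authors deposited it, compares genes within a library. The fit was tested on simulated data. Alternatives used DESeq2 1.42.0 and limma 3.58.1.

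In the PBS groups, same-numbered libraries deviated together (r of 0.219, 0.331, 0.591, 0.412 and 0.668). Mutant replicate 4 was closer to a wild-type library of another number, at 0.560. Same-numbered PBS libraries also share the code writing, so whether the numbers pair them is not settled. The blocked fit changed no call there. No 2 libraries held identical values. The 6 genes and all lists were chosen with earlier results of these data known. Named genes were the 6, up to 4 genes with the smallest p per list and comparison, the 8 genes most like the 6, and genes that overlap them or mark other cells. One gene of the lists is not reported here.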

Additional observations from a re-analysis of the deposited data

Results flagged for a closer look

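Among the 5 wild-type PBS libraries, replicate 3 stood far above the others in TMM-scaled CPM for 4 of the 6 genes. It had 2541 CPM of Elane against a group median of 426, 884 of Prtn3 against 242, 586 of Ctsg against 147 and 421 of Ms4a3 against 66.8. The gap to the nearest library was 0.890, 0.819, 0.712 and 0.802 of the group's range, above the critical value of 0.71 for 5 libraries. In the same library the abundance-weighted length of the Mpo transcripts was 1117 bases against a median of 1934 bases. The TMM factor of this library was 0.547, and its deposited TPM values of these genes did not stand apart. With immunoglobulin genes left out of the TPM scaling, it was the highest wild-type PBS library for all 4 genes. Elane then had 2774 TPM, against 1083 in replicate 5, the next highest. The rule was not run on these rescaled values. In all, 40 sets of 5 values were looked at and 5 stood out, all from this library, where chance gives about 1 in 20.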

How the results depend on the processing

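The 5-FU fall of Fcnb kept its direction in every alternative run, from -14.19 to -5.49 in wild type (adjusted p 3.70e-16 to 0.0154) and from -11.70 to -5.44 in the mutant (1.90e-12 to 0.0809), and lost its call in 1, the mutant within 1 code prefix, where 0 of the 6 genes were called. Of the 6 genes, 2 were called in wild type under DESeq2, limma-voom, limma-trend on log2(TPM + 1) and the replicate block, and 1 to 2 with 1 library left out. In the mutant 4 were called under DESeq2, 3 under limma-voom, 2 with only the groups compared, and 1 to 2 with 1 library left out (Elane, without wild-type 5-FU replicate 3). After 5-FU 2 were called between genotypes under DESeq2 and 1 under limma-voom. Numbers of replicates do not pair the samples outside the PBS groups, and within those groups pairing is not settled. With the replicate block Elane in wild type came to -4.09 (edgeR adjusted p 0.0383). The numbers of all genes called moved more, from 189 to 7615 in wild type, 138 to 1556 in the mutant, 17 to 5100 between genotypes after 5-FU, 0 to 26 under PBS and 11 to 723 for the difference of responses.

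Signs of values that were not called turned as follows, and the cause was not tested. In wild type after 5-FU, log2(TPM + 1) and log2(TPM + 0.1) gave 0.98 and 0.99 for Prtn3, 0.38 and 0.38 for Ctsg, and 0.94 and 0.95 for Ms4a3; on these scales the median of all genes shifted to 1.006 and 1.297, so relative to it the values stay at or below 0. The immunoglobulin share as a covariate gave 0.079 for Ms4a3. Within the same code prefix wild-type 5-FU replicate 3, the highest library, stood alone against PBS replicates 4 and 5, and is assumed to vary like them; it gave 2 calls, Fcnb lower and Ms4a3 higher at 1.96 (adjusted p 0.0132), with 0.38 for Mpo, 0.92 for Prtn3 and 1.10 for Ctsg, which describe that library and not the group. Leaving out 1 library gave -2.24 to 0.044 for Mpo, -1.45 to 0.067 for Prtn3 and -1.91 to 0.65 for Ms4a3. Under PBS between genotypes, Mpo was -0.31 by limma-voom, -0.18 and -0.18 on the TPM scales, -0.13 with the code writing, -0.30 with the immunoglobulin share and -0.11 with the replicate block. In the same order, Fcnb was 0.31, 0.23, 0.24, 0.12, 0.13 and 0.11. Elane was 0.12 by limma-voom, 0.14 and 0.14 on the TPM scales and 0.083 with the replicate block, and Prtn3 0.032 by limma-voom. Leaving out 1 library gave -0.34 to 0.74 for Mpo, -0.75 to 0.85 for Elane, -0.51 to 0.43 for Prtn3, -0.74 to 0.35 for Ctsg, -0.85 to 0.39 for Ms4a3 and -0.42 to 0.58 for Fcnb. After 5-FU, Elane was 0.14 by limma-voom and -3.56 to 1.00 with 1 library left out, and Prtn3 -1.09 to 0.11. For the difference of responses Elane was 0.022 by limma-voom and -3.27 to 1.29 with 1 library left out, and Prtn3 -1.15 to 0.38. Leaving out replicate 3 of both PBS groups, chosen after seeing that their TMM factors were lowest, gave 0.066 for Prtn3 and 0.65 for Ms4a3 in wild type, and 0.89 for Elane, 0.43 for Prtn3, 0.47 for Ctsg, 0.33 for Ms4a3 and 0.17 for Fcnb under PBS; it changed no call.

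Precision is limited by 3 libraries a group after 5-FU and by the spread between them; at 3 counts the floor was 0.272 CPM or less. TPM rescaled without immunoglobulin genes raised 8 of 24 group levels by more than 1 SD, among them Mpo in wild-type PBS libraries, at 1438 ± 541 TPM.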
